A study of Mus musculus with 12 samples.

Results

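The untreated libraries of MODE-K, an epithelial line made from mouse small intestine, are described here: 3 libraries out of the 12 in the series, taken by their label as control without treatment. All groups share one wild-type line, grown in serum-containing medium, and differ only in the gamma radiation given from a cobalt source and in the time of collection. The controls received 0 Gy and were collected at 0 h. The other 9 libraries came, 3 each, from cells collected 48 h after 4 Gy (4Gy_48h), 24 h after 12 Gy (12Gy_24h) and 48 h after 12 Gy (12Gy_48h). The labels mention parallel groups but not separate cultures, so a p-value covers just library-to-library spread, part of which may be technical. MODE-K is a line that was immortalised with a viral large T antigen, and it stands for cultured, dividing cells rather than for the layers of a living gut. Members of the description are the known genes of the deposited table, that is, genes with an Ensembl identifier, which were 22036 of 33625.

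Intestinal epithelium is a single layer of cells held together by E-cadherin (Cdh1), the adhesion protein EpCAM, claudins and desmosomes, and stiffened inside by the simple keratins 8, 18, 19 and 20. Its identity is kept by transcription factors such as CDX2 and the HNF4 pair, and stem cells at the crypt base renew absorptive, goblet, Paneth, enteroendocrine and tuft cells. Cells that leave the epithelial state in culture, in wound repair or in tumours lose E-cadherin and gain vimentin, fibronectin and N-cadherin, a change driven by SNAI, ZEB and TWIST factors. The line is used to study how gut cells sense microbes and die, through pyroptosis, necroptosis and apoptosis among other routes.

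The control libraries held 4831641, 3776038 and 3779351 reads assigned to genes. Known genes took 77.7, 75.6 and 75.6% of them. Loci that the authors assembled without an Ensembl gene (new loci) took 19.8, 21.7 and 21.6%, and known genes are described without them. Long noncoding RNA loci took a further 2.51, 2.75 and 2.85%. Shares of reads given for new loci leave these out, while searches of new loci for matches include them. Values are deposited counts and CPM, the count scaled to the library's total, where 1 read was worth 0.207, 0.265 and 0.265 CPM. A gene was called present when it had at least 1 CPM in each of the 3 libraries, without reads when it had 0 reads in all 3, and at trace otherwise. A total of 0 among the 12387030 control reads allows up to 3 reads, or 0.242 CPM, for counting error only. By these rules 9856 known genes (44.7%) were present, 3353 were at trace and 8827 (40.1%) had no reads. Each count of list members below is to be read beside these shares. All 33 of 33 genes for RNA polymerase II, chaperonin and proteasome subunits were present. They were chosen after levels had been seen, so this cannot serve as a check on the zeros.

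A known gene's count can still miss reads of that gene, because a new locus may have taken them. Gapdh, the glycolytic enzyme, had 148, 179 and 148 reads as a known gene, while 5 new loci whose protein match is GAPDH held 59022 reads over the 3 libraries. New loci and long noncoding RNA loci with control reads numbered 10870 together. Of these, 24.3% carried a Swiss-Prot entry, with 44.1% of the reads at the 10870 loci. An NR entry, a protein description, was carried by 90.5%, with 97.6% of the reads. A search of the Swiss-Prot matches and KEGG names for the 293 list members that were not present found new loci for Cdh11 and Fgfr3 only. Of the 289 that were present 9 had such a locus, and among those Bcl2l1 had 361 reads there against 990 at the known gene. NR entries were searched for words only, where a search of every annotation field for the words epcam, keratin, desmoplakin, occludin or villin found 0 loci. A zero below therefore means no reads at the known gene, and loci named in neither Swiss-Prot nor KEGG were not matched to members. Strandedness of the counting is not given in the sources used here, so counts are uncertain for members whose exons overlap another known gene. Those named here whose partner had reads in the controls are Avil (with Tsfm), Bak1 (Ggnbp1), Ccnd1 (LTO1), Ciita (Dexi), Ctnnb1 (Ulk4), Eng (Fpgs), Erbb2 (Mien1), Fgfr2 (Ctbp2), Irf7 (Phrf1), Lrig1 (Slc25a26), Mttp (Trmt10a), Myd88 (Acaa1a), Nr1i3 (Tomm40l), Ripk1 (Serpinb6a), Rnf31 (Irf9), S100a4 (Gm42674), Tap1 (Psmb9) and Ticam2 (Tmed7). Bax, Casp9, Ctnna1, Ctnnd1, Ifnar2, Il10rb and Tap2 overlap genes that had 0 reads.

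The defining epithelial markers were nearly empty, and the mesenchymal filament vimentin was abundant. Vim (chr2:13573927-13582826, GRCm38), which encodes the intermediate filament of mesenchymal cells, had 921, 508 and 498 CPM. Library 1 was the high one, and the mean was 643 ± 242 CPM (SD, n = 3). Krt18 (chr15:102028180-102032027) had 25, 5 and 12 reads, or 5.17, 1.32 and 3.17 CPM, which met the rule for presence by a small margin. Its partner in simple epithelial filaments, Krt8 (chr15:101996698-102004482), had 1, 0 and 1 reads. Epcam (chr17:87635979-87651129) and Cdh1 (chr8:106603351-106670246) had 0 reads in each control library, and only 2 reads each across all 12 libraries. These values went against the part of the label that calls the cells small intestinal epithelium, and the cells are called untreated MODE-K cells here without another cell type name. In RNA from bulk culture, fewer cells of a type and less RNA per cell cannot be told apart.

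**Figure D1:**
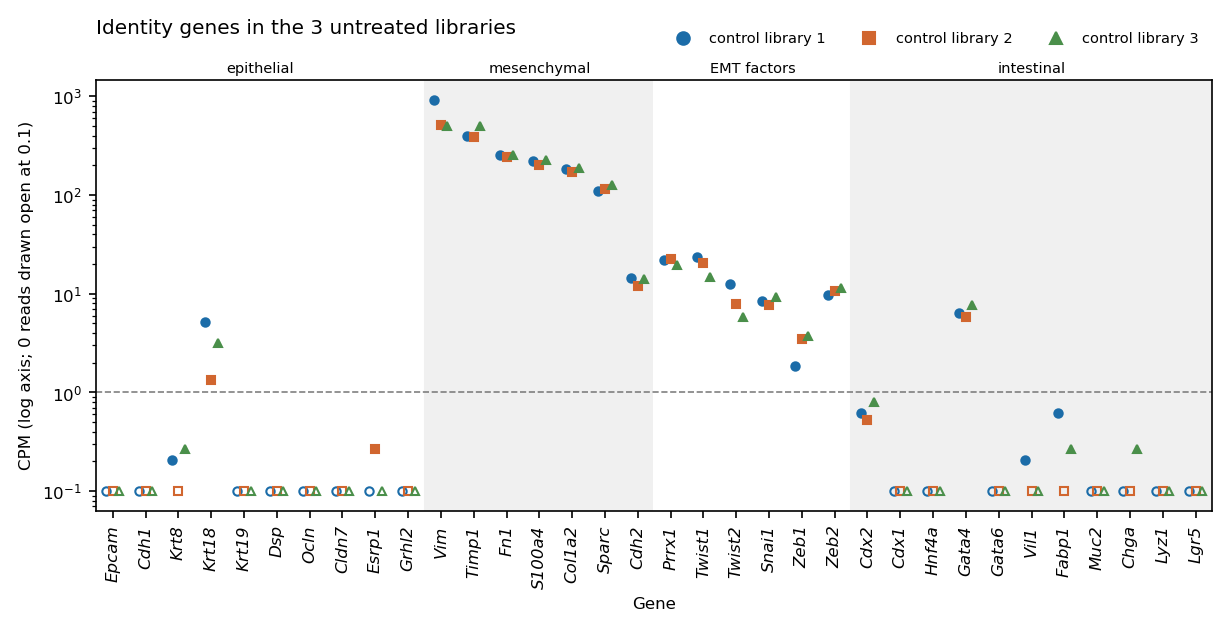
Levels of identity genes in the 3 untreated libraries, in CPM on a log axis, 1 symbol per library, with the dashed line at 1 CPM and genes at 0 reads drawn open at 0.1. Epcam, Cdh1 and most epithelial genes sit at 0, Krt18 lies between 1.32 and 5.17 CPM, and Vim lies between 498 and 921 CPM.

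The stretches upstream of these markers are shown with an E-box motif, of the kind that SNAI and ZEB factors are known to bind. They are the 250 bases before the RefSeq start (GRCm38.p6), on the gene's own strand, 5′ to 3′, with matches to CACCTG or its reverse complement CAGGTG in capitals. The table used held no entry for Cdh1. The windows are chr17:87635729-87635978 (plus strand) for Epcam, chr15:102004343-102004592 (minus strand) for Krt8, chr15:102027966-102028215 (plus strand) for Krt18 and chr2:13574061-13574310 (plus strand) for Vim. RefSeq starts differ from the ends of the GENCODE spans given above, so the Vim window lies inside its span and those of Krt8 and Krt18 overlap theirs in part.
Epcam: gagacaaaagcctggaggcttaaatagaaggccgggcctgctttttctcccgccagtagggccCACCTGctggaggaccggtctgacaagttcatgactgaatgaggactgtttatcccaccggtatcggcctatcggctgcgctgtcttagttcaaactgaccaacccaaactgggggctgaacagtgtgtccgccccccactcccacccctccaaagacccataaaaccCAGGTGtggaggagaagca
Krt8: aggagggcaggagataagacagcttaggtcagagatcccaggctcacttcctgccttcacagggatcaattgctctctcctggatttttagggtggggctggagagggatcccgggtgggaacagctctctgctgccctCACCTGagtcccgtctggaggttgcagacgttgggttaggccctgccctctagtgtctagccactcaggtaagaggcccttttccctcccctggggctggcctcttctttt
Krt18: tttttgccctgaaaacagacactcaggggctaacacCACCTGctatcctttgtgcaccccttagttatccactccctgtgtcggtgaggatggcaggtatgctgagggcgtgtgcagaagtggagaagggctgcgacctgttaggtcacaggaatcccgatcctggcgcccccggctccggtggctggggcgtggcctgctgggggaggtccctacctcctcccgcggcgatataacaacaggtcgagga
Vim: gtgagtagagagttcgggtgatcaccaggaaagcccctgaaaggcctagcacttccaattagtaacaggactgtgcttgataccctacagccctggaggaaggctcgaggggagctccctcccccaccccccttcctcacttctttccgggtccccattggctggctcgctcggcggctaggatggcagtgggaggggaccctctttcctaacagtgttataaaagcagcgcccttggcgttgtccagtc
Epcam held 2 matches, Krt8 and Krt18 held 1 each and Vim held 0. Of all 32851 windows of this length, 17.2% held a match. The motif and the 4 windows were chosen after motif counts had been seen, nothing is read from the counts, and a match is a run of letters, not a bound site.

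Ribosomal protein genes dominated the most abundant transcripts. The 85 such genes took 25.5 ± 0.50% of all reads (SD, n = 3), 83 of them were present, and 16 of the 20 known genes with the highest CPM were of this class. The 13 mitochondrially encoded genes took 0.406 ± 0.0736%. The 20 genes of highest CPM together took 12.5 ± 0.663% of reads, and the highest 100 took 33.4 ± 0.943%.

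Tpt1, which encodes a growth-related calcium-binding protein, stood first by CPM, with 10775, 8758 and 10620. Lgals1, the sugar-binding protein galectin-1, had 8259.5, 7039 and 8043 CPM. S100a6, a calcium-binding protein of dividing and mesenchymal cells, had 8641, 5862 and 5775 CPM, with library 1 above the other two. The remaining gene of the first 20 outside the ribosome was Eef1a1, the factor that brings aminoacyl-tRNA to the ribosome, at 5642 ± 269 CPM.

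Where the level of one gene is set against that of another, CPM per kb of transcript is used, from the median length of the gene's annotated transcripts. An order by CPM is an order of reads. The scale per kb assumes that reads rise with transcript length, and since the platform is not settled it would be wrong if each read stood for 1 whole transcript. On that scale S100a6 (11313 CPM per kb), Lgals1 (9726) and Tpt1 (9285) were among the first 20 known genes, and Rpl41 (18166) and Rplp1 (17740) led. Both orders shared 10 of their first 20 genes. Examples of other abundant genes, not in an unbroken order, were the actin-binding Tmsb10 (4238 CPM per kb), the ferritin chains Fth1 (3375) and Ftl1 (2970) and the MHC class I light chain B2m (1978). Akap5, a kinase anchor known from neurons, was listed at 3244, 3216 and 4575 CPM, and Timm22 and Hmga1b at means of 1798 and 2928 CPM. Whether such counts include reads of overlapping or near-identical genes was not tested.

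Epithelial genes other than the given markers were mostly missing. Across keratins, junction genes and epithelial factors without those markers, 14 of 58 members were present and 29 had no reads, against 44.7% and 40.1% of all known genes. Of the simple keratins, Krt20, a keratin of mature gut surface cells, had 5.80, 10.6 and 4.23 CPM. Krt7 had 2.69, 2.38 and 2.65 CPM. Krt19 and Krt23 had no reads. Krt10, a keratin of stratified skin, was even between libraries, at 24.2, 24.4 and 25.9 CPM, while Krt5, Krt14 and the cornified envelope genes Ivl and Lor had none.

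The 8 junction genes that were present included several that act in many adherent cells. Ctnna1, which ties cadherins to actin, had 107, 122 and 117 CPM. Cldn12, an unusual claudin found widely, had 45.7, 54.3 and 55.0 CPM, and Ctnnb1, the cadherin-bound coactivator beta-catenin, had 37.3, 32.8 and 33.3 CPM. Ctnnd1, Tjp1, Jup and Pkp3 were present too, at means between 2.03 and 21.1 CPM. Beside Epcam and Cdh1, 13 junction genes had no reads, among them the claudins Cldn1, Cldn2, Cldn3, Cldn4, Cldn7 and Cldn15, the tight junction protein Ocln, the desmosomal Dsp and Dsc2, and Cdh17, the cadherin of gut epithelium. Of 15 epithelial transcription and splicing factors only Klf4 (30.1 ± 3.96 CPM) and Klf5 (13.6 ± 3.86 CPM), both also used outside epithelia, were present. Grhl2, Ovol2, Ehf, Rab25 and Spint2 had no reads, and the splicing factor Esrp1 had 1 read in 1 library.

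Genes of the mesenchymal state were found in part. Of 26 mesenchymal and matrix genes other than Vim 13 (50.0%) were present, a share near the 44.7% of all known genes. Timp1, an inhibitor of matrix proteases, had 399, 388 and 503 CPM. Fn1, fibronectin, had 257, 245 and 255 CPM, a range narrower than that of Vim. S100a4, a calcium-binding protein of motile cells, had 224, 200 and 226 CPM.

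The collagen chain Col1a2 had 182, 172 and 188 CPM, but its partner Col1a1 had 10.6, 6.62 and 8.73 CPM. These 2 genes encode the chains of type I collagen, and per kb their known genes had 33.8 and 1.46 CPM per kb. Sparc, a matrix-binding glycoprotein, had 111, 116 and 127 CPM. N-cadherin (Cdh2) had 14.5, 11.9 and 14.0 CPM where Cdh1 had 0 reads. No reads were found at Lum, Postn, Tgfbi, Col6a2, Thy1 and the known gene Cdh11, which encode matrix, surface and adhesion proteins of fibroblasts. For Cdh11, however, 4 new loci whose protein match is cadherin-11 held 4052 reads over the 3 control libraries. Whether those reads come from Cdh11 was not tested.

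Of 10 transcription factors that drive the epithelial to mesenchymal transition, 8 were present. Prrx1 had 22.2, 22.2 and 19.6 CPM, and Twist1 had 23.6, 20.7 and 14.8 CPM. Zeb2 had 9.73, 10.6 and 11.4 CPM and Snai1 had 8.49, 7.68 and 9.26 CPM. Twist2, Tcf4, Zeb1 and Snai2 lay at means between 2.67 and 10.8 CPM, and Snai3 and Foxc2 had no reads. Of 12 contractile genes, 5 (41.7%) were present, a share near the 44.7% of all known genes. Among them were the tropomyosin Tpm1 (158, 199 and 182 CPM) and Tagln2, while the smooth muscle genes Acta2, Myl9, Myh11 and Lmod1 had no reads.

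Few intestinal genes were found. Of 17 intestinal and endodermal transcription factors, 5 were present: Klf5, Sox9 (8.28, 10.3 and 6.61 CPM), Gata4 (6.42, 5.83 and 7.67 CPM), Foxa1 (3.31, 2.91 and 2.38 CPM) and Tcf7l2 (2.48, 1.59 and 1.85 CPM). Gata4, which marks the upper small intestine, was thus steady at a low level in all 3 libraries. Cdx2, the master factor of intestinal fate, had 3, 2 and 3 reads and stayed at trace. It is named here after its value was seen. Cdx1, Hnf4a, Hnf4g, Gata5, Gata6, Foxa3, Creb3l3 and Isx had no reads.

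The 7 lineage lists (enterocyte, goblet, Paneth, enteroendocrine, tuft, stem and M cell) held 84 members, of which 12 were present and 48 had no reads. Of all known genes, 44.7% were present and 40.1% had no reads. Goblet, Paneth and enteroendocrine lists had 0 of 9, 0 of 10 and 0 of 11 members present. The goblet mucin Muc2, the Paneth lysozyme Lyz1, the brush border enzymes Sis and Alpi and the peptide hormone genes Cck and Gcg were at 0 reads. Of 23 enterocyte genes 4 were present. These were Fcgrt (24.0, 27.0 and 24.3 CPM), an antibody receptor, Maoa (13.1 ± 2.19 CPM), an amine oxidase, Mttp (5.49 ± 2.48 CPM), which loads lipoproteins, and Cdhr5 (3.13 ± 0.204 CPM), a brush border cadherin.

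Of 15 stem cell and Wnt feedback genes, Cd44 (115, 136 and 120 CPM), Lrig1 (13.0, 14.6 and 7.41 CPM) and Bmi1 (9.52, 6.62 and 7.94 CPM) were present, and each is also used in many other dividing cells. Lgr5, Olfm4, Ascl2, Axin2, Rnf43 and Smoc2, which mark crypt base stem cells or report Wnt signalling, had no reads. From the tuft list Ptgs1 (22.4, 26.0 and 16.9 CPM) and Avil (9.52, 22.2 and 20.9 CPM) were present, but Pou2f3, Gnat3 and Il25, which define tuft cells, were at 0. From the M cell list Anxa5, Tnfaip2 and Marcksl1 were present, and Gp2, Spib and Tnfrsf11a had no reads. That list had 3 of 7 members present (42.9%), near the 44.7% of all known genes.

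The list that differed from the other intestinal lists in its counts was that of genes known from fetal and regenerating gut epithelium, with 7 of 9 present. Anxa3, an annexin, had 514, 390 and 399 CPM, and Anxa1 had 295, 239 and 229 CPM. Ccn1, a YAP target, had 281, 269 and 204 CPM. Msln, the surface protein mesothelin, had 183, 169 and 161 CPM. Clu, Ly6a and Ccn2 were present at means of 5.45, 4.33 and 4.12 CPM. Several of these genes are also used outside the gut, and the difference between lists is a description without a test.

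Markers of other cells were low. Of 14 immune genes, 3 were present, and the list summed to between 24.4 and 30.2 CPM per library. Cd68, a lysosomal protein of macrophages, had 15.1, 20.1 and 19.3 CPM, and Lyz2 had 7.04, 7.15 and 8.73 CPM. The pan-leukocyte Ptprc, the T cell genes Cd3d and Cd3e and the macrophage gene Adgre1 were at 0 reads. Of 10 endothelial genes Tie1 (6.20 ± 1.87 CPM) and Eng (3.53 ± 1.33 CPM) were present, while Cdh5, Vwf, Tek and Emcn had no reads, and the list summed to between 6.88 and 14.6 CPM. Of 10 neural genes 0 were present.

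**Figure D2:**
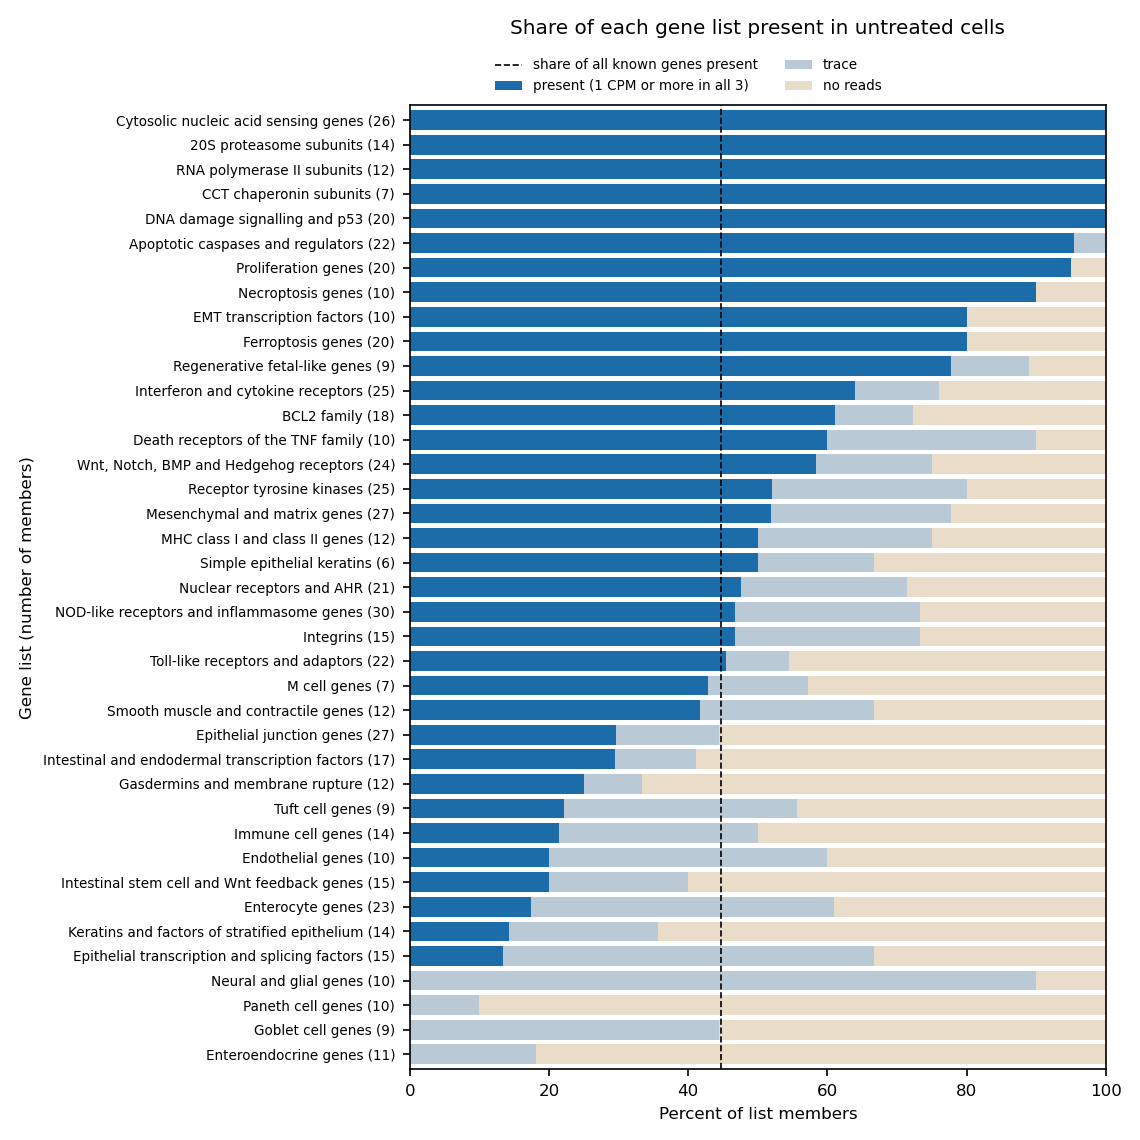
Share of the members of each gene list, in percent, that were present, at trace or without reads in the 3 untreated libraries, with the number of members in brackets and the dashed line at the 44.7% of all known genes that were present. Nucleic acid sensing and DNA damage lists are full, and goblet, Paneth, enteroendocrine and neural lists have 0 present.

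Of 120 receptor genes 66 (55%) were present and 28 had no reads, against 44.7% and 40.1% of all known genes. By list the share present ran from 46.7% for integrins to 64% for interferon and cytokine receptors, without a test. The list named for death receptors of the TNF family had 6 of 10 members present. It also holds receptors without a death domain, Tnfrsf12a, Ltbr and Tnfrsf1b, and Tnfrsf12a made up 86.2% of its summed CPM. Tnfrsf12a, the receptor for TWEAK, had 692, 619 and 762 CPM. Tnfrsf1a, the main TNF receptor, had 55.7, 49.3 and 50.8 CPM, and Fas had 6.0, 11.4 and 7.67 CPM. Per kb of transcript Tnfrsf12a (957 CPM per kb) exceeded Tnfrsf1a (24.1), Ltbr (15.9), Fas (5.95), Tnfrsf10b, the mouse TRAIL receptor (4.32), and Tnfrsf1b (0.582).

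Of 25 interferon and cytokine receptor genes 16 were present. Both chains of the type I interferon receptor were found, Ifnar2 with 30.2, 18.8 and 18.8 CPM and Ifnar1 with 9.73, 9.53 and 10.3 CPM, and both chains of the interferon gamma receptor, Ifngr1 and Ifngr2, at means of 8.95 and 11.8 CPM. The receptor of type III interferon, which acts mainly on epithelia, lacked reads at its specific chain Ifnlr1, while its shared chain Il10rb had 9.84 ± 2.07 CPM. The interleukin-22 receptor Il22ra1, also typical of epithelia, and Il10ra, Il13ra1, Il18r1 and Lifr had no reads. Il1r1 had 21.7, 13.5 and 15.4 CPM and Tgfbr3 19.7, 31.0 and 16.9 CPM. Tgfbr2 had 9.37 ± 1.56 CPM.

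Of 25 receptor tyrosine kinases 13 were present. Axl, a receptor for GAS6 common in mesenchymal cells, had 161, 176 and 136 CPM, and Epha2 had 133, 158 and 139 CPM. Igf1r and the collagen receptor Ddr2 had means of 30.2 and 22.8 CPM. The epidermal growth factor receptor Egfr had no reads in the 3 libraries and 1 read in all 12, and Erbb4, Fgfr2, Fgfr4 and Kit had none in the controls. Erbb2 had 7.87, 3.97 and 7.67 CPM and Met 4.76, 5.83 and 6.35 CPM.

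Of 24 receptors for Wnt, Notch, BMP and Hedgehog ligands 14 were present, among them Smo (39.3, 31.2 and 32.8 CPM), the transducer of Hedgehog signals, and Ptch1 (1.91 ± 1.10 CPM), a Hedgehog receptor. Fzd6, Lrp6, Acvr1 and Notch1 lay between 9.68 and 12.4 CPM on average. Of 21 nuclear receptors 10 were present, among them Rxrb, Nr1h2 and the glucocorticoid receptor Nr3c1 (24.4, 25.2 and 23.8 CPM). The xenobiotic and lipid receptors Nr1i2, Nr1i3, Ppara and Pparg, which the gut or liver uses, had no reads, and the vitamin D receptor Vdr had 1.45, 2.12 and 1.85 CPM. Of 15 integrins 7 were present. Itgb1, the common beta chain, had 91.9, 93.5 and 97.4 CPM, and Itgb7, known from gut-homing lymphocytes, had 71.8, 64.1 and 68.5 CPM.

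All 26 genes listed for cytosolic nucleic acid sensing were present. Present too were 10 of 22 Toll-like receptor and adaptor genes and 14 of 30 genes for NOD-like receptors and inflammasomes. Those shares, 45.5 and 46.7%, lie near the 44.7% of all known genes. The oligoadenylate synthetase Oas1a, which starts RNA decay on double-stranded RNA, had 112, 176 and 120 CPM, although reads may be shared with the near-identical Oas1g. STING (Tmem173) had 35.0, 34.2 and 28.1 CPM. Its upstream DNA sensor Cgas had 3.93, 3.97 and 2.91 CPM. The RNA sensors RIG-I (Ddx58), MDA5 (Ifih1) and PKR (Eif2ak2) had means of 21.7, 8.77 and 19.99 CPM. Mavs, the adaptor of RIG-I and MDA5, had 12.6 CPM.

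Library 2 was the highest of the 3 for Oas1a, Oasl1 (54.2, 89.2 and 60.9 CPM), Irf7 (76.8, 93.7 and 56.1 CPM) and Ddx58, all interferon-induced genes, and the sum of the nucleic acid sensing list was 697.5, 977.7 and 708.9 CPM. The part of that library in the means was not tested apart from the values shown.

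Among Toll-like receptors, Tlr4, the lipopolysaccharide receptor, had 2.69, 4.24 and 4.23 CPM, and its partners Cd14 and Ly96 had 16.4 ± 2.04 and 5.44 ± 1.54 CPM. Tlr3, the receptor for double-stranded RNA, had 1.86, 2.12 and 1.59 CPM. Tlr2, Tlr5, Tlr7, Tlr8, Tlr9, Tlr11, Tlr12 and Tlr13 had no reads, and neither did Unc93b1, which carries nucleic acid receptors to endosomes, or the bridging adaptor Ticam2. The adaptor Myd88 had 11.6, 11.4 and 13.2 CPM.

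Of 12 MHC genes the class I genes were present and class II genes were not. B2m had 1642, 2001 and 1460 CPM and H2-D1 966, 1025 and 876 CPM, and the peptide transporters Tap1 and Tap2 had means of 15.9 and 39.5 CPM. H2-Aa, H2-Ab1 and the class II activator Ciita had no reads, and Cd74, the class II chaperone, had 6, 7 and 1 reads. Reads of the closely related H2 genes may be split between them.

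Pyroptosis, the subject of the series title, is a lytic death in which inflammasomes activate inflammatory caspases, and these cut gasdermins, whose fragments open the membrane. The caspases were present: Casp1 had 12.2, 18.5 and 14.0 CPM and Casp4, which senses cytosolic lipopolysaccharide, had 5.38, 28.3 and 8.73 CPM, with library 2 high. The DNA sensor Aim2 had 9.11, 14.3 and 16.9 CPM. The adaptor Pycard (ASC), through which AIM2 and NLRP3 recruit caspase-1, had 0 reads in the controls and 1 in all 12 libraries. Nlrp3 itself had 1, 8 and 3 reads, and the caspase-1 substrates Il1b and Il18 had 0 reads and 6, 7 and 3 reads (Nlrp3 and Il18 were named after their values were seen).

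Of 12 gasdermin and membrane rupture genes 3 were present. Gsdmd, the main substrate of caspases 1 and 4 in this pathway, had 2.90, 1.59 and 3.44 CPM, or 14, 6 and 13 reads. Gsdme, another pore-forming gasdermin, had 9.93, 10.1 and 7.14 CPM, and Ninj1, the protein that tears the membrane in late lytic death, had 29.2, 34.2 and 25.9 CPM. Per kb Gsdme (3.33 CPM per kb) exceeded Gsdmd (1.47). The Gsdma and Gsdmc genes and Pjvk had no reads, though copies within these families are close. Txnip, a glucose-responsive arrestin that can bind NLRP3, ranged from 115 to 226 and 317 CPM across the libraries, a spread of more than 2-fold.

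Necroptosis, a death by MLKL pores after RIPK1 or ZBP1 engage RIPK3, had 9 of 10 genes present, against 44.7% of all known genes. Mlkl had 40.0, 77.3 and 50.3 CPM. Zbp1, the sensor of Z-form nucleic acids, had 9.11, 9.53 and 6.35 CPM, and Ripk1 had 3.52, 8.21 and 6.35 CPM. The missing gene was Ripk3, the kinase that activates MLKL, with 0 reads in the controls and 1 read in all 12 libraries. Pgam5 (49.4 ± 8.13 CPM) and the linear ubiquitin ligase genes Sharpin, Rbck1 and Rnf31 were present.

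Apoptosis genes were close to complete, with 21 of 22 caspases and regulators present, against 44.7% of all known genes. The initiator caspases Casp8 and Casp9 had means of 15.8 and 11.3 CPM. Cycs, cytochrome c, had 713, 910 and 1015 CPM, although processed copies of this gene exist and reads may be shared with them. Of 18 BCL2 family genes 11 were present. Bax, a pore former of the mitochondrial membrane, had 236, 252 and 269 CPM, and the second pore former Bak1 had 39.1, 46.9 and 48.2 CPM.

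Among the guards against these pores, Bcl2l1 had 92.3, 65.7 and 78.3 CPM, Mcl1 54.8, 52.2 and 53.5 CPM and Bcl2 only 2.90, 2.65 and 3.70 CPM. Per kb this was 32.6, 25.0 and 0.615 CPM per kb. Of the BH3-only triggers, Bbc3 (PUMA) had 11.6, 23.8 and 22.2 CPM and Bcl2l11 (BIM) 5.17, 4.77 and 5.56 CPM. Pmaip1 (NOXA), Bik and Hrk had no reads.

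Of 20 ferroptosis genes 16 were present. Ferroptosis is a death by iron-driven lipid oxidation, which GPX4 prevents, and Gpx4 had 706, 677 and 639 CPM. The cystine importer Slc7a11, which feeds that defence, had 9.73, 31.0 and 16.4 CPM, while its heavy chain Slc3a2 had 144 ± 15.1 CPM. Acsl4, which makes the oxidisable lipids, had 16.6, 15.4 and 15.6 CPM. The lipoxygenases Alox5, Alox12 and Alox15 and the iron exporter Slc40a1 had no reads.

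**Figure D3:**
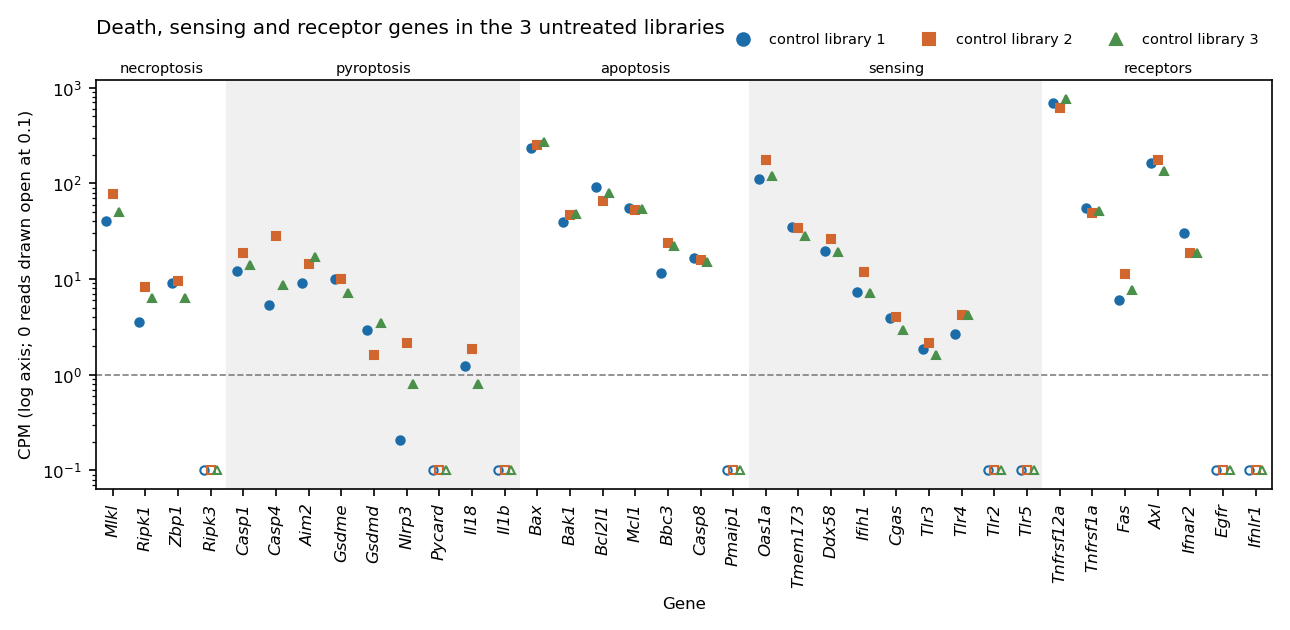
Levels of death, sensing and receptor genes in the 3 untreated libraries, in CPM on a log axis, 1 symbol per library, with the dashed line at 1 CPM and genes at 0 reads drawn open at 0.1. Ripk3, Pycard, Il1b, Pmaip1, Tlr2, Tlr5, Egfr and Ifnlr1 sit at 0 beside pathway partners that were present.

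Proliferation and damage response genes were almost all present, 39 of 40. Ccnd1, a cyclin of early cycle entry, had 215, 217 and 205 CPM, Pcna had 172, 135 and 139 CPM and Mki67 had 26.9, 31.5 and 24.1 CPM. Trp53, the gene for p53, had 36.4, 38.7 and 35.5 CPM. Its target Cdkn1a, a cycle inhibitor, had 333, 445 and 543 CPM before any irradiation, and Mdm2, its target and inhibitor, had 106, 159 and 122 CPM. Cdkn2a, the cycle inhibitor and p53 regulator, was the gene without reads.

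The 3 untreated libraries agreed broadly, and some inflammatory genes stood apart. Over the 9856 present genes, log2 CPM of library pairs had a Pearson r of 0.972 for libraries 1 and 2, 0.977 for 1 and 3 and 0.982 for 2 and 3, given as a description across genes. The SD of the log2 ratio was 0.518, 0.483 and 0.431. Among genes between 1 and 5 CPM the median SD over mean was 31.0%, and the SD expected from counting was 29.9% of the mean. Above 100 CPM the values were 9.62% and 3.51%. With 3 libraries the median of an observed SD falls below the expected SD, so spread beyond counting is understated at each level. The common biological coefficient of variation from edgeR, the spread beyond counting, was 0.163 for the controls, 0.111 for 4Gy_48h, 0.131 for 12Gy_24h and 0.0850 for 12Gy_48h. Without control library 1 the controls' value was 0.115, and without library 2 or 3 it was 0.165 or 0.192. The difference between groups was not tested.

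Of 4130 known genes with a mean of at least 20 CPM and a read in each library, 133 (3.22%) differed more than 2-fold between the highest and lowest library, and the median ratio was 1.26. Library 1 was highest for 61 of the 133, library 2 for 56 and library 3 for 16. Cxcl1, a neutrophil-attracting chemokine, had 38.7, 718 and 42.9 CPM, an 18.5-fold range. Lcn2, an iron-scavenging defence protein, had 20.7, 268 and 51.3 CPM, a 12.9-fold range.

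Both genes were high in library 2 alone. The NF-kB inhibitor genes Nfkbia (20.5, 83.9 and 20.6 CPM) and Nfkbiz (9.94, 46.1 and 11.9 CPM) were high in the same library. Of the other 8 widest genes, 6 were highest in library 1. These include Mrps24 (82.6, 11.9 and 23.8 CPM), a mitochondrial ribosomal protein, and Pgls (137, 21.7 and 71.7 CPM), a pentose phosphate enzyme, Bola3 (152, 27.0 and 83.4 CPM) and Gtf3a (123, 28.6 and 45.8 CPM). Read-weighted transcript length was 1629, 1718 and 1684 nt in the 3 libraries, and its part in these ranges was not tested. Olfr889, an olfactory receptor gene, and Dpy19l1 were low in library 1, the latter with 19.7, 96.1 and 68.0 CPM.

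**Figure D4:**
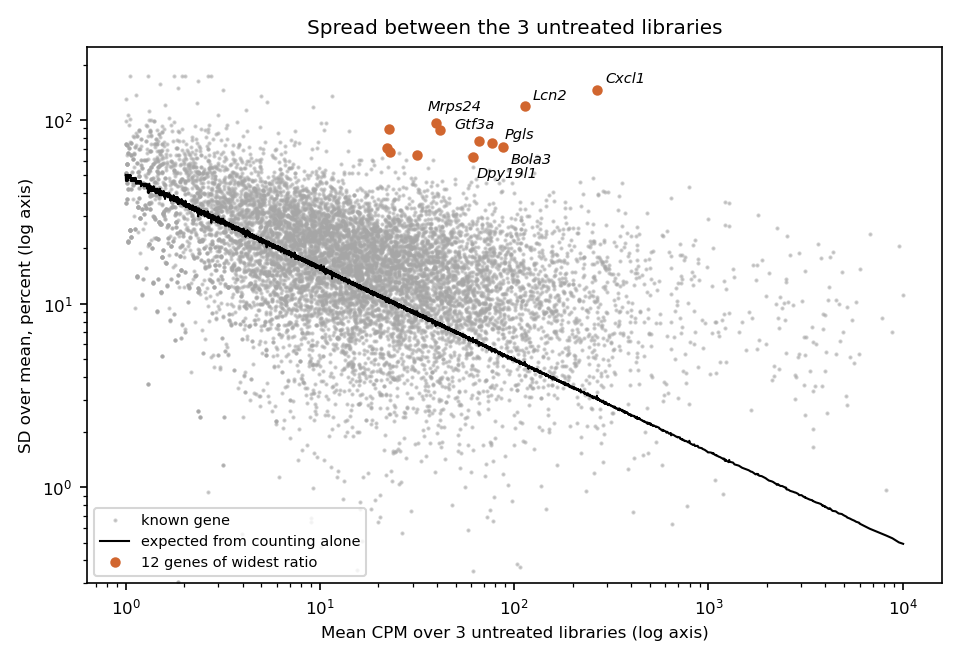
SD over mean, in percent on a log axis, against mean CPM on a log axis for each known gene with a mean of at least 1 CPM in the 3 untreated libraries, with the line for counting alone and the 12 genes of widest ratio in orange. SD over mean is widest at low levels, and Cxcl1 and Lcn2 lie above all other genes with a mean of at least 20 CPM. The line is the SD expected from counting, and the median of an SD over 3 libraries would fall below it.

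The untreated cells were then set against the mean of the 3 irradiated groups with edgeR's quasi-likelihood test over all genes. Because the controls are a 0 h collection, radiation and hours of further culture cannot be told apart. With Benjamini-Hochberg adjustment, 2138 of 15086 genes tested (14.2%) were higher and 4023 (26.7%) lower after irradiation, 40.8% in all. Among known genes 2004 of 9809 (20.4%) were higher and 239 (2.44%) lower, 22.9% in all. Without control library 3 the 239 became 122, and with no filter on low counts the 2004 became 3136. New loci took 11.9 to 16.9% of reads in irradiated libraries, below the controls, and scaling over all genes put the median known gene at a log2 change of 0.19. When known genes were scaled and tested alone this median was -0.0026, and 403 (4.11%) were higher and 510 (5.2%) lower, 9.3% in all. The share of higher genes among those called thus moved from 89.3 to 44.1%.

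Of the 582 list members 290 passed the filter on low counts. Of the 290, 92 (31.7%) were higher and 9 (3.10%) lower, against 20.4% and 2.44% of all known genes tested. With known genes alone 39 (13.45%) were higher and 13 (4.48%) lower, against 4.11% and 5.2% of all known genes. As members had to be expressed somewhere to be tested, these counts describe the tested members only. Epcam and Cdh1 could not be tested, since they had 0 reads in the controls and 2 reads each in the other 9 libraries. None of the goblet, Paneth, enteroendocrine or neural genes passed the filter. Of 182 members without reads in the controls, 105 had none in all 12 libraries.

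Vim and Krt18 were both lower in untreated cells. The Vim controls held 921, 508 and 498 CPM. The 4Gy_48h libraries held 1118, 1439 and 985 CPM, the 12Gy_24h libraries 2286, 2408 and 1941 and the 12Gy_48h libraries 1314, 1202 and 1696, so no control reached an irradiated library. It rose by a log2 fold change of 1.25 ± 0.18 (SE, edgeR adjusted p = 3.361e-05). Krt18 had 5.17, 1.32 and 3.17 CPM in the controls and from 5.46 to 16.2 CPM in the irradiated libraries, and it overlapped no irradiated library either. Its log2 change was 1.33 ± 0.28 (edgeR adjusted p = 0.00118).

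Of 26 tested members of the mesenchymal, factor and contractile lists, Vim among them, 12 were called higher and 2 lower, and with known genes alone 8 and 2. Over all known genes tested 20.4% were called higher and 2.44% lower, and with known genes alone 4.11% and 5.2%. Fn1, Col1a1, Cdh2, Twist1 and Zeb2 were not called. Sparc rose by 0.83 ± 0.09 on the log2 scale (edgeR adjusted p = 2.819e-06) from 111 to 127 CPM in controls to between 172 and 259 CPM. S100a4 rose by 1.29 ± 0.19 and Col1a2 by 0.57 ± 0.10. These held with known genes alone. Timp1 went down by a log2 change of -0.35, but at 12Gy_24h it had 490, 543 and 530 CPM, above the controls at 388 to 503 in all but one pairing, and its call ended without control library 3 (adjusted p = 0.19). Des, the muscle filament desmin, had 4.97, 5.03 and 3.70 CPM in controls and a log2 change of -1.08 ± 0.30. At 12Gy_48h it had 2.21, 5.64 and 3.32 CPM, which overlapped the controls.

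Of 15 tested epithelial members, Krt18 among them, 4 were called higher and 1 lower, and with known genes alone 2 and 1. Of 24 tested intestinal members 12 were called higher and 1 lower, and with known genes alone 5 and 1. The shares over all known genes were 20.4% higher and 2.44% lower, and with known genes alone 4.11% and 5.2%. Klf4 rose by 0.77 ± 0.12 and Ctnna1 by 0.42 ± 0.08 on the log2 scale, the latter not with known genes alone (adjusted p = 0.0775), while Krt10 changed by -0.48 ± 0.12. Sox9 rose by 0.88 ± 0.21 in the mean of groups. At 4Gy_48h it had 15.5, 11.9 and 7.20 CPM, which overlapped the controls at 8.28, 10.3 and 6.61 CPM. Avil was the member with the greatest fall, from 9.52, 22.2 and 20.9 CPM in controls to between 0.261 and 8.32 CPM, a log2 change of -2.51 ± 0.34 (edgeR adjusted p = 1.598e-05). Ly6a, a marker of regenerating gut, had 6.62, 2.65 and 3.70 CPM in controls. It had 25.2, 13.7 and 25.1 CPM at 4Gy_48h, then 5.82, 8.61 and 4.50 in 12Gy_24h libraries and 40.2, 44.8 and 76.0 in 12Gy_48h libraries. The rise of 2.10 ± 0.33 in the mean of groups thus came with overlap between controls and 12Gy_24h.

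Of 60 tested death genes 21 were called higher and 1 lower (6 and 2 with known genes alone), and of 57 sensing genes 22 and 1 (9 and 1). All known genes gave 20.4% higher and 2.44% lower (4.11% and 5.2% with known genes alone). For several of the death and sensing genes the irradiated groups differed in value. Zbp1 had 9.11, 9.53 and 6.35 CPM in controls and 62.6, 69.0 and 83.5 CPM at 12Gy_48h, yet at 12Gy_24h it had 3.79, 4.70 and 6.35 CPM. Over the mean of the 3 irradiated groups it rose by 1.48 ± 0.21 on the log2 scale. Irf7 had 76.8, 93.7 and 56.1 CPM in controls against 262 to 324 at 12Gy_48h and 36.7 to 50.8 at 12Gy_24h. Hmox1, a haem-degrading enzyme, rose by 1.28 ± 0.22 over the mean of groups, but at 4Gy_48h it had 83.8, 45.7 and 80.3 CPM, within the controls at 43.9, 108 and 63.5 CPM, and at 12Gy_24h 284, 344 and 321 CPM. Tfrc, the transferrin receptor, rose by 1.17 ± 0.20, with 56.3 to 61.1 CPM at 12Gy_24h against 6.61 to 16.2 in controls and 11.2 to 19.1 at 4Gy_48h, which overlap. Gsdme was called higher (0.76 ± 0.23), but neither with known genes alone (adjusted p = 0.116) nor without control library 3 (adjusted p = 0.0519).

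Txnip and Fas were higher in untreated cells than in the mean of irradiated groups. Txnip fell by 1.60 on the log2 scale (SE 0.22, edgeR adjusted p = 2.278e-05), from 115, 226 and 317 CPM to 17.2, 20.6 and 19.8 CPM at 12Gy_24h, while at 12Gy_48h it had 236, 256 and 178 CPM, within the control range. Fas fell by 1.056 (SE 0.25), with 2.02, 2.09 and 1.85 CPM at 12Gy_24h and 8.54, 9.13 and 5.25 CPM at 12Gy_48h. Il1rl1, the interleukin-33 receptor, rose by 1.93 ± 0.24, and no control (3.17 to 6.09 CPM) reached an irradiated library (9.34 to 29.5 CPM). Trp53 (-0.32 ± 0.11) and Cycs (-0.26 ± 0.09) were called lower, and each call ended when any of several single libraries was left out, with adjusted p up to 0.118 and 0.510. With known genes alone their log2 changes were -0.51 and -0.45 (edgeR adjusted p = 0.00535 and 0.00537). That fit was not repeated with libraries left out.

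**Figure D5:**
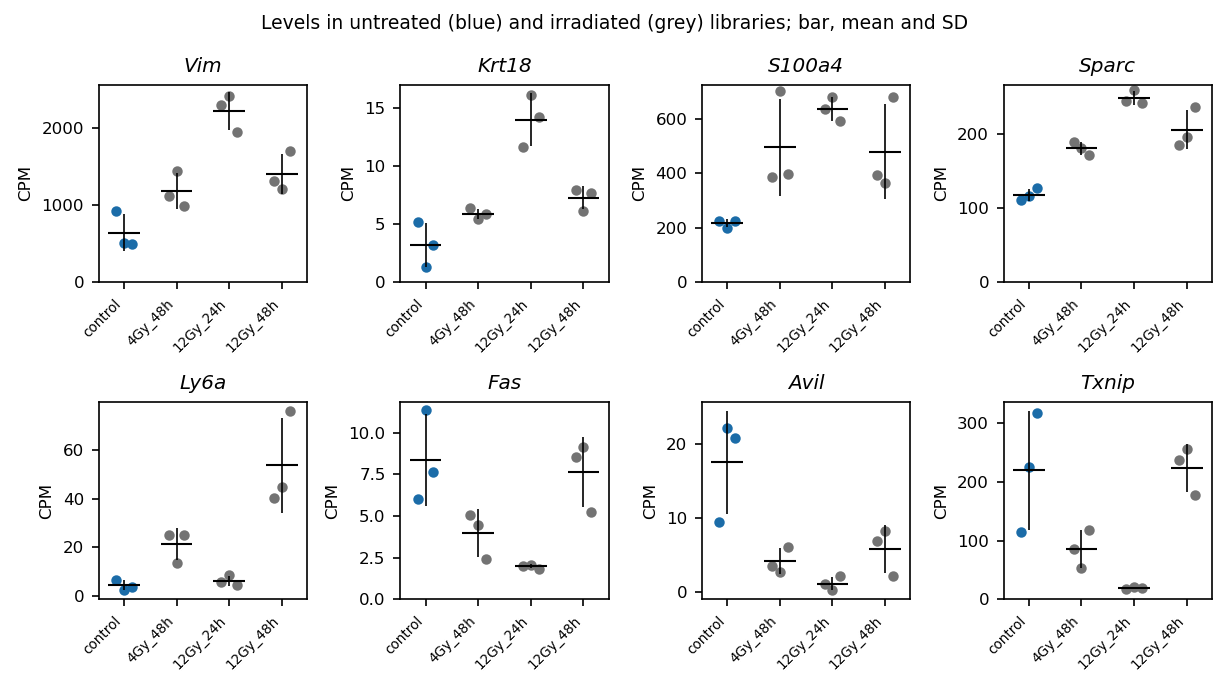
CPM of 8 genes by group, 1 point per library, untreated in blue and irradiated in grey, with bars for mean and SD. Vim and Sparc are lowest in the untreated libraries, Avil is highest there, and Txnip at 12Gy_48h lies within the untreated range.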

How the data were processed

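RNA of untreated and irradiated MODE-K cells was sequenced in 12 libraries, grouped and numbered as their titles state. The submitters' processing notes name cutadapt 1.9 and FastQC. The table's locus names are of a kind used with long reads, the labels name an Illumina protocol, and the platform is not settled. For aligner, build, annotation and strandedness, nothing was given in the sources used here.

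The authors deposited whole-number read counts per gene, without normalization. They also deposited CPM, the count over the column total, which differed from CPM recomputed here by at most 4.78e-06. Control totals ran from 3776038 to 4831641 reads, so 1 read was worth 0.207 to 0.265 CPM. Of 33636 lines, 11 were the overflow of long cells and were dropped. Of 22036 known genes 22022 matched a symbol and a gene model of GENCODE M21 (GRCm38), whose median transcript lengths gave CPM per kb.

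The description used the 3 control libraries. For the mean of the 3 irradiated groups minus control, all 12 libraries entered a two-sided quasi-likelihood test in edgeR 4.0.16 (R 4.3.3), with TMM scaling, filterByExpr and 1 mean per group. Genes were called at an adjusted p (Benjamini-Hochberg, 15086 genes) under 0.05. The fit was tested on simulated data. DESeq2 1.42.0 was an alternative, beside other thresholds, scalings, filters, known genes alone, a replicate block and each library left out. Deviations from group means correlated between -0.132 and 0.176 in the 9 pairs of a control and an irradiated library with the same number. In the 18 other pairs they correlated between -0.155 and 0.229. The same number thus brought no closer likeness, which cannot exclude that such libraries were handled together.

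The 37 gene lists (582 members) and the members described were chosen with earlier results of these data known, and no list was tested. Genes were named by a rule: the 20 highest by CPM and by CPM per kb; in each list the given markers, up to 8 present members of highest CPM and members without reads; the 12 with the widest ratio between control libraries at a mean of at least 20 CPM; and up to 6 called members per direction and section. Genes named outside it, chosen after their values had been seen, were Acsl4, Akap5, Bcl2, Bcl2l11, Casp8, Casp9, Cd74, Cdh2, Cdx2, Cgas, Col1a1, Ddx58, Esrp1, Fgfr3, Gapdh, Hmga1b, Ifih1, Ifngr1, Il18, Mavs, Met, Mki67, Nlrp3, Ptch1, Rpl26, Rps18, Slc7a11, Timm22, Tmsb10 and Vdr, as were the genes drawn in figures. A few genes under this rule are left out of the text. Promoter windows come from RefSeq (GRCm38.p6).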

Additional observations from a re-analysis of the deposited data

Results flagged for a closer look

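Reads at new loci, which the description of known genes does not use, matched 2 list members that were not present as known genes. The known gene Cdh11, for the mesenchymal cadherin-11, had 0 reads in all 12 libraries, yet 4 new loci whose protein match is cadherin-11 held 1353, 1370 and 1329 reads in the 3 untreated libraries, 4052 together, above the 3 reads that a count of 0 allows. The new locus that matches FGFR3, a growth factor receptor, held 6, 8 and 5 reads, 19 together, while the known gene Fgfr3 had 1 read in 1 library. Of the 4 cadherin-11 loci, 1 with 613 reads is typed as a long noncoding RNA locus. Positions of the loci were not compared with those of the genes. Whether these reads come from Cdh11 and Fgfr3 was not tested. The loci were found by searching the matches for list members.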

How the results depend on the processing

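Counting error limits genes under about 5 CPM, where presence depends on the threshold. The number of known genes present kept within 1.5 times under every alternative. At 5 CPM in place of 1 CPM, 9 of the epithelial list members and 2 of those for other cells were present. The coefficient of variation of the controls lay between 0.1148 and 0.1919 when 1 control library was left out, the lowest without control library 1. In the comparison with irradiated groups, genes called higher numbered 3378 with no filter on low counts and 403 with known genes alone, and known genes called higher 3136 and 403. List members called higher numbered 39 with known genes alone, and genes called lower 510. With 1 library left out, genes higher ran from 1902 to 2804 and lower from 3614 to 4372, known genes higher from 1783 to 2652 and lower from 122 to 245, and list members higher from 76 to 113 and lower from 7 to 12. The 122 known genes called lower came without control library 3. The causes were not tested, except that known genes alone were tested as a smaller set on their own scale. With the replicate block 2022 genes were higher and 3947 lower, and the block moved no count by over 1.5 times. Of 49 named genes 34 kept direction and call under every alternative. In all 57 of 833 values lost the call and 0 reversed.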

Other observations

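Beside GAPDH, several of the most abundant new loci in untreated cells matched ribosomal proteins whose known genes were far lower. The new locus matching RPS18 had a mean of 4515 CPM while the known gene Rps18 had 113 CPM, and the locus matching RPL26 had 4102 CPM while Rpl26 had 18.6 CPM. For Rps29 the new locus had 4603 CPM and the known gene 2634 CPM. These loci took no part in the sum for ribosomal protein genes.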
